A study of Mus musculus with 10 samples.

Results

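The 10 genes described here are markers of Kupffer cells and other macrophages: Clec4f, Cd5l, Vsig4, Marco, Timd4, Adgre1, Csf1r, Cd68, Lyz2 and C1qa. They were taken by name from the 41388 Ensembl genes counted in mouse liver RNA, and all 10 were found and passed the filter on low counts (above 1 CPM, the count scaled by the library total, in at least 1 liver). Bulk RNA-seq was performed on whole livers of 12-week-old littermate C57B/6J mice in 3 groups, with 1 library per mouse. WT Refed mice (n = 2) were fasted for 22 h and then refed for 2 h, WT Fasting mice (n = 3) were fasted for 24 h, and NAMPT LKO Fasting mice (n = 5) were fasted for 24 h and lack Nampt in hepatocytes. All mice carry a loxP-flanked Nampt gene, and NAMPT LKO mice also carry Cre recombinase under the albumin promoter. That promoter is active in hepatocytes, so the model is not designed to delete Nampt in macrophages. The feeding times are those of the labels, and the study's text describes the control mice as fed and the fast as 12 h long. No NAMPT LKO Refed mice were analysed here, so an effect of fasting could be measured in WT livers alone.

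Kupffer cells are the resident macrophages of the liver sinusoids, where they take up bacteria, aged red cells and debris from portal blood. In the mouse most are seeded before birth and renew in place, and they depend on signalling through the CSF1 receptor. Resident Kupffer cells are known for Clec4f, Timd4, Vsig4, Marco and Cd5l, whereas Adgre1, Csf1r, Cd68, Lyz2 and the C1q chains are shared with monocyte-derived and other tissue macrophages. The liver samples held RNA of all cell types, and a lower level of a marker can come from fewer macrophages or from less of that RNA in each macrophage. Levels are relative to the RNA of the whole liver, so a change in the RNA of other cells can also move them. These sources cannot be told apart in bulk RNA.

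Total counts were 42170825 and 43218540 in WT Refed livers, 33947232 to 43434139 in WT Fasting livers and 30603080 to 41160486 in NAMPT LKO Fasting livers. At this depth the lowest count of any of the 10 markers in any liver was 161 (Timd4 in a NAMPT LKO liver). Nampt, the deleted gene, was at 11.6 to 15.1 CPM after TMM normalization (a scaling that corrects for library composition) in NAMPT LKO livers, 62.1 to 139 in WT Fasting livers and 66.8 and 76.9 in WT Refed livers, and the groups with and without Cre did not overlap. NAMPT LKO Fasting mouse 5 and WT Fasting mouse 3 stood apart from the other livers. In NAMPT LKO Fasting mouse 5, 21.1% of counts came from the mitochondrial genome, against 7.42% to 12.9% in the other livers, and its levels relative to the other livers followed GC content (Spearman rho -0.59 over genes, against -0.13 to 0.22 elsewhere). WT Fasting mouse 3 had the lowest mitochondrial share (7.42%) and the highest level of Nampt, and its immune genes are described with the markers.

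All 10 markers are protein-coding genes of the GRCm38 annotation. The promoters of 3 of them are shown, picked from the 4 of 7 matched promoters that hold the letters GAGGAA. PU.1, the lineage factor of macrophages, is known to bind purine-rich sites with a GGAA core. Whether such letters relate to the markers' levels was not tested. The sequences are the 250 bases before the RefSeq start site in GRCm38.p6, on the gene's strand, and capitals mark the letters GAGGAA or their reverse complement TTCCTC. The windows are chrX:96293439-96293688 for Vsig4, chr11:69666171-69666420 for Cd68 and chr1:120505025-120505274 for Marco, all 3 genes being on the minus strand.
Vsig4 promoter: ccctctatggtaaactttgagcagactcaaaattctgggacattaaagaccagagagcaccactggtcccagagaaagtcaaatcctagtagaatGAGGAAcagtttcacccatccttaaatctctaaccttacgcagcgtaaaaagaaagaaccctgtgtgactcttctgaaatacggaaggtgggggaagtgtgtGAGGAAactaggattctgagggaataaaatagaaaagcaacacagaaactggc
Cd68 promoter: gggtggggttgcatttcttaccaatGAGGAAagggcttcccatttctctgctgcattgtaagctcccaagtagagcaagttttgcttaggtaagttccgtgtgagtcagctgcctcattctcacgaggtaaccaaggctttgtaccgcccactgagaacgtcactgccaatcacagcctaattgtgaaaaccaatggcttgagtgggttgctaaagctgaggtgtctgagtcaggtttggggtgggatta
Marco promoter: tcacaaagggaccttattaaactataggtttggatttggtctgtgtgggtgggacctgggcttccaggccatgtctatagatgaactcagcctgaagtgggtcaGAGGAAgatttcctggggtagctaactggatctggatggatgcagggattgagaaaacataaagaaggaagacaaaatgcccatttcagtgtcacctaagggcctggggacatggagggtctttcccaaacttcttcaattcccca

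Promoters of 7 of the 10 markers were matched by symbol (Marco, Cd5l, Clec4f, Lyz2, Timd4, Cd68 and Vsig4). GAGGAA was found on either strand in 4 of these 7, those of Marco, Cd5l, Cd68 and Vsig4, and at 2 places in that of Vsig4. Over all 32851 RefSeq promoters of the same length, 23.3% held it. The letters TGGGAA, the core recognised by RBPJ of the Notch pathway, were in 4 of 7 (Marco, Clec4f, Lyz2 and Cd68) and in 21.6% of all promoters. A C/EBP site, TTGCNNAA, was in that of Cd68 alone and in 9.56% of all. The letters TGCTGAC, of a MAF factor site, was in that of Timd4 alone and in 3.81% of all. All searches covered both strands, and no pair of these sites overlapped in the 7 windows. A match is a description of letters and was not tested for binding.

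Levels per exonic length (the deposited RPKM, reads scaled by exonic length and library total) placed the 10 markers in 3 tiers. C1qa, a chain of complement C1q, had 47.5 ± 16.5 RPKM (SD over all 10 livers), Lyz2, lysozyme, 46.4 ± 9.03, Cd5l 36.8 ± 17.4 and Clec4f 29.0 ± 8.0. Vsig4 (14.4 ± 3.28), Marco (10.8 ± 5.63), Csf1r (10.3 ± 3.75) and Cd68 (8.32 ± 2.65) formed the middle. Timd4 (4.30 ± 2.44) and Adgre1 (3.77 ± 1.74) were lowest. Some neighbours in this order did not separate liver by liver: C1qa was above Lyz2 in 7 of 10 livers, Marco above Csf1r in 5 of 10 and Timd4 above Adgre1 in 6 of 10. Clec4f was above Vsig4, Csf1r above Cd68 and Cd68 above Timd4 in all 10. Among the 13444 genes tested, the members lay between the 51.9th percentile (Adgre1) and the 92.5th (C1qa) of mean RPKM.

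**Figure D1:**
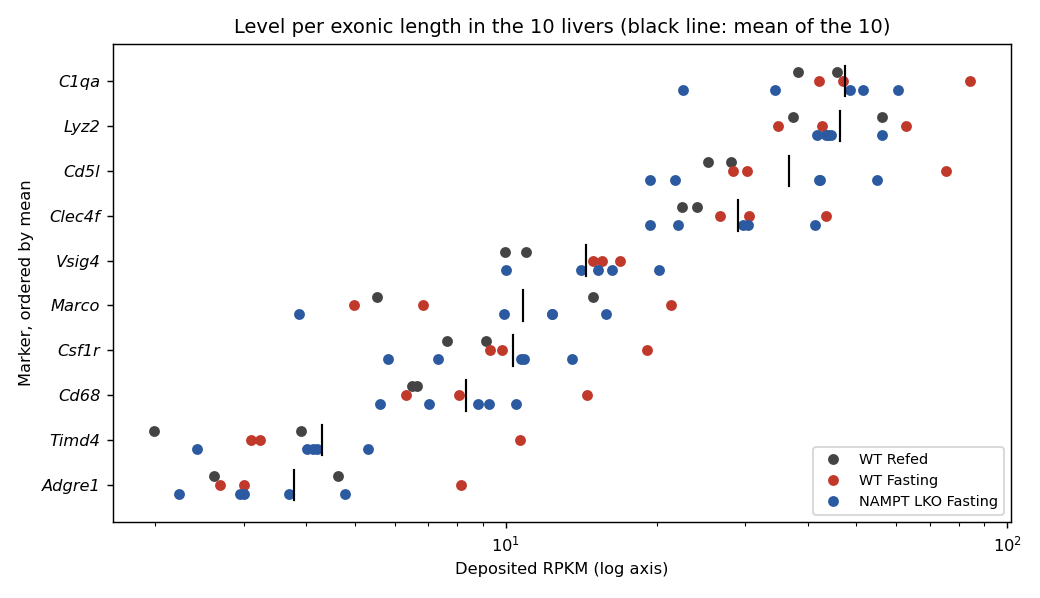
Deposited RPKM (log axis) of the 10 markers in each of the 10 livers, coloured by group, with the mean of all livers as a black line. The order runs from C1qa (mean 47.5) to Adgre1 (mean 3.77), and the spread within a marker is widest for Marco, Timd4 and Cd5l.

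Among the receptors of resident Kupffer cells, Clec4f (chr6:83644542-83656187, minus strand) encodes a C-type lectin that in the mouse is largely restricted to Kupffer cells. It had 56.9 and 53.3 TMM-normalized CPM in WT Refed livers, 74.3, 68.4 and 104 in WT Fasting livers and 46.9, 73.0, 98.7, 75.0 and 64.1 in NAMPT LKO Fasting livers, mice 1 upwards in each group. The WT Fasting livers lay above both WT Refed livers, and the NAMPT LKO Fasting livers spanned both groups.

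Vsig4 (chrX:96247203-96293438, minus strand) encodes a complement receptor that clears particles coated with C3 fragments. Its TMM CPM were 15.5 and 14.2 in WT Refed, 21.7, 24.0 and 24.3 in WT Fasting and 14.5, 22.6, 29.1, 24.1 and 24.6 in NAMPT LKO Fasting livers. All WT Fasting livers and 4 of 5 NAMPT LKO Fasting livers were above both WT Refed livers, and NAMPT LKO Fasting mouse 1 was level with them. Vsig4 was the single marker whose highest value was not in WT Fasting mouse 3.

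Marco (chr1:120474538-120505024, minus strand) encodes a scavenger receptor for bacteria. It ranged most, with 27.4 and 10.2 TMM CPM in WT Refed, 9.42, 13.6 and 39.9 in WT Fasting and 7.29, 23.7, 29.5, 19.1 and 28.0 in NAMPT LKO Fasting livers. Each group held both a low and a high liver, so the groups overlapped fully.

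Timd4 (chr11:46810800-46844332, plus strand) encodes a phosphatidylserine receptor used to engulf dying cells. Its TMM CPM were 8.09 and 4.14 in WT Refed, 6.89, 7.0 and 22.5 in WT Fasting and 5.15, 8.91, 8.82, 8.72 and 13.6 in NAMPT LKO Fasting livers. WT Fasting mouse 3 was the outstanding value, and the other 9 livers overlapped.

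Cd5l (chr3:87357881-87371074, plus strand) encodes a secreted scavenger protein of tissue macrophages. It had 54.7 and 49.3 TMM CPM in WT Refed, 60.6, 60.0 and 149 in WT Fasting and 38.7, 85.6, 108, 85.6 and 52.0 in NAMPT LKO Fasting livers. WT Fasting mice 1 and 2 were close to the WT Refed livers and below 3 of the 5 NAMPT LKO Fasting livers.

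The 5 markers shared by all macrophages each had their highest value in WT Fasting mouse 3, and the lowest liver differed among them. Csf1r (chr18:61105572-61132149, plus strand), the receptor for CSF1 and IL34, had 42.5 and 35.8 TMM CPM in WT Refed, 47.1, 47.1 and 90.4 in WT Fasting and 35.0, 52.0, 64.1, 53.1 and 33.4 in NAMPT LKO Fasting livers. Its exons share 871 bases with Hmgxb3 on the opposite strand, which had 320 to 630 counts, and the sources used here do not state whether counting used strand, so some of its reads could belong to either gene. C1qa (chr4:136895917-136898803, minus strand) had 45.4 and 38.1 TMM CPM in WT Refed, 48.0, 45.5 and 85.1 in WT Fasting and 35.0, 50.2, 60.9, 53.5 and 27.6 in NAMPT LKO Fasting livers. For both genes the lowest of all 10 livers was NAMPT LKO Fasting mouse 5 and the highest WT Fasting mouse 3.

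Adgre1 (chr17:57358686-57483529, plus strand), which encodes the F4/80 antigen, had 14.3 and 8.16 TMM CPM in WT Refed, 9.59, 9.08 and 25.6 in WT Fasting and 9.53, 11.9, 15.0, 9.55 and 8.51 in NAMPT LKO Fasting livers. Cd68 (chr11:69664213-69666153, minus strand), a lysosomal glycoprotein, had 8.0 and 7.84 in WT Refed, 9.94, 8.25 and 17.7 in WT Fasting and 8.63, 11, 12.7, 11.6 and 8.31 in NAMPT LKO Fasting livers. Lyz2 (chr10:117277334-117282274, minus strand) had 67.9 and 45.3 in WT Refed, 53.2, 45.9 and 77.3 in WT Fasting and 51.7, 56.0, 68.9, 54.8 and 65.2 in NAMPT LKO Fasting livers. Cd68 alone was above both WT Refed livers in every fasted liver, by a narrow margin in the lowest of them, whereas Adgre1 and Lyz2 overlapped in all 3 comparisons. Lyz1, the near-identical neighbour of Lyz2 whose reads could be split between the copies, was at 0.96 to 2.64 TMM CPM.

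**Figure D2:**
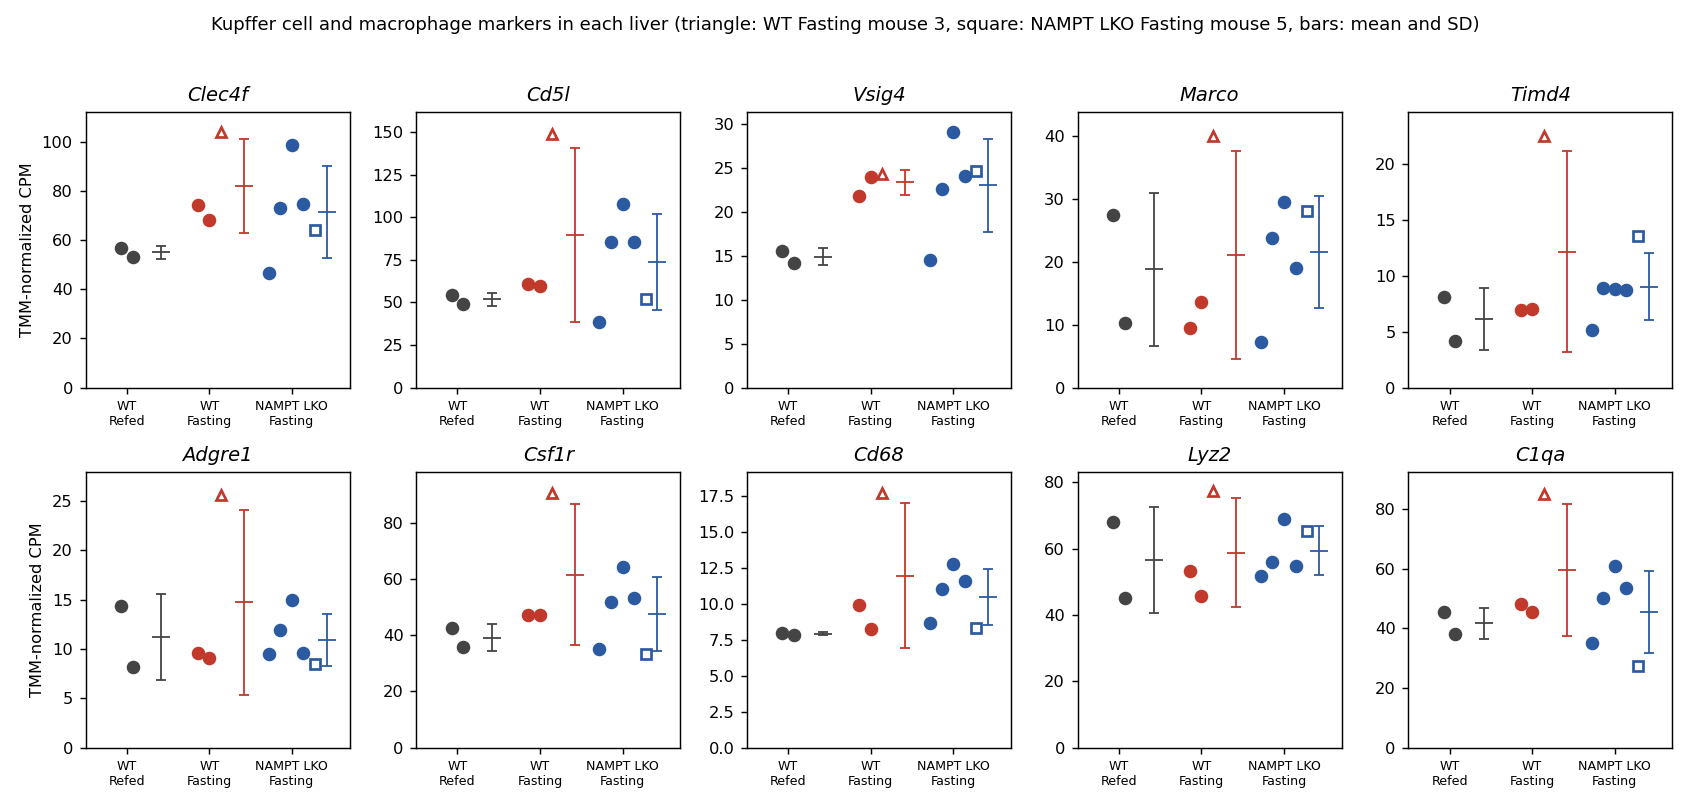
TMM-normalized CPM of each marker (y axis from 0) by group, with 1 point per liver and the mean and SD of each group beside it. WT Fasting mouse 3 (open triangle) is the highest of the 10 livers for 9 of 10 markers, and the other WT Fasting livers lie within the NAMPT LKO Fasting range for 8 of 10.

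Fasting against refeeding in WT livers was compared first. No marker passed the test (0 of 10 at an adjusted p of at most 0.05, edgeR's quasi-likelihood test over 13444 genes), against 7.04% of all genes tested (946), and 1 of 10 had an unadjusted p under 0.05, against 22.3%. All 10 estimates were above 0, with a median log2 fold change of 0.59 against 0.04 for all genes tested, and 6 of 10 (Clec4f, Cd5l, Vsig4, Csf1r, Cd68 and C1qa) had no overlap between groups, against 49.7% of all genes in either direction and 24.5% in the upward direction. Without WT Fasting mouse 3 the median was 0.19, and 3 estimates fell below 0 (Marco, Adgre1 and Lyz2). The listed markers of other cells had medians of 0.22 (sinusoidal endothelium), 0.20 (stellate cells), 0.12 (hepatocytes), 0.60 (B and plasma cells) and -0.10 (bile duct) with all livers. Without WT Fasting mouse 3 these were 0.16, 0.27, 0.04, 0.61 and -0.28, so the markers' 0.19 then lay within the range of these lists.

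Vsig4 had the smallest p of the 10, with a log2 fold change of 0.65 (SE 0.23, adjusted p = 0.119 with edgeR). It was also the marker that moved least without WT Fasting mouse 3 (0.62). It passed with limma's voomWithQualityWeights (adjusted p = 0.0234), in a fit of these 2 groups alone (adjusted p = 0.0167 with edgeR) and without NAMPT LKO Fasting mouse 1 (adjusted p = 0.0262), and did not with DESeq2, with the other normalizations or with any other single library left out. Clec4f followed at 0.58 (SE 0.27, adjusted p = 0.232), and at 0.37 without WT Fasting mouse 3. Timd4 had the largest estimate, 0.99 (SE 0.54, adjusted p = 0.312), which came to 0.18 without that mouse. Cd5l went from 0.79 (SE 0.46) to 0.21, Csf1r from 0.65 (SE 0.33) to 0.26, Cd68 from 0.60 (SE 0.30) to 0.20 and C1qa from 0.51 (SE 0.34) to 0.16. Marco, at 0.16 (SE 0.66), came to -0.71, Adgre1, at 0.39 (SE 0.44), to -0.27, and Lyz2, at 0.06 (SE 0.23), to -0.20.

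Hepatocyte NAMPT loss in fasted livers was compared next. Again no marker passed (0 of 10, edgeR's quasi-likelihood test), 0 of 10 had an unadjusted p under 0.05, and 0 of 10 had no overlap between groups. Of all genes tested, 0.00744% passed (1 gene, Nampt itself, with a log2 fold change of -2.81 and adjusted p = 0.00102), 6.03% had an unadjusted p under 0.05 and 3.99% had no overlap. With edgeR's exact test, DESeq2 and voomWithQualityWeights, 0 of 10 markers passed as well. The markers' median log2 fold change was -0.24, against 0.00 for all genes, with 8 estimates below 0 and 2 above.

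That direction rested on WT Fasting mouse 3. Without it the median was 0.22, and 9 of 10 estimates were above 0, from 0.01 for Clec4f to 0.91 for Marco, with C1qa at -0.03. In the fit of all 10 livers, the most negative estimates were those of Adgre1 (-0.44, SE 0.34, adjusted p = 0.845 with edgeR), Timd4 (-0.43, SE 0.42), C1qa (-0.39, SE 0.27, adjusted p = 0.839) and Csf1r (-0.37, SE 0.26). Clec4f (-0.20, SE 0.21), Cd5l (-0.28, SE 0.36) and Cd68 (-0.19, SE 0.24) were smaller. Vsig4 (-0.02, SE 0.18), Lyz2 (0.01, SE 0.19) and Marco (0.03, SE 0.53) were near 0.

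Fasted NAMPT LKO livers were also set against WT Refed livers, which shares its livers with the comparisons above and joins genotype and feeding in one difference. No marker passed (0 of 10, edgeR's quasi-likelihood test), against 11.2% of all genes (1510), and 1 of 10 had an unadjusted p under 0.05, against 26.1%. Of the estimates, 9 of 10 were above 0, with a median of 0.33 against 0.03 for all genes. Vsig4 had the largest estimate here, 0.63 (SE 0.21, adjusted p = 0.0847), which passed with DESeq2 (adjusted p = 0.0362), voomWithQualityWeights (adjusted p = 0.0178) and without NAMPT LKO Fasting mouse 1 (adjusted p = 0.00978 with edgeR). Cd68 (0.40, SE 0.28) was the 1 marker without overlap, against 33.5% of all genes. Timd4 (0.56, SE 0.50), Cd5l (0.51, SE 0.43), Clec4f (0.38, SE 0.25) and Csf1r (0.28, SE 0.31) came next. Marco (0.19, SE 0.61), C1qa (0.12, SE 0.31), Lyz2 (0.07, SE 0.21) and Adgre1 (-0.04, SE 0.40) were within 1 SE of 0.

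**Figure D3:**
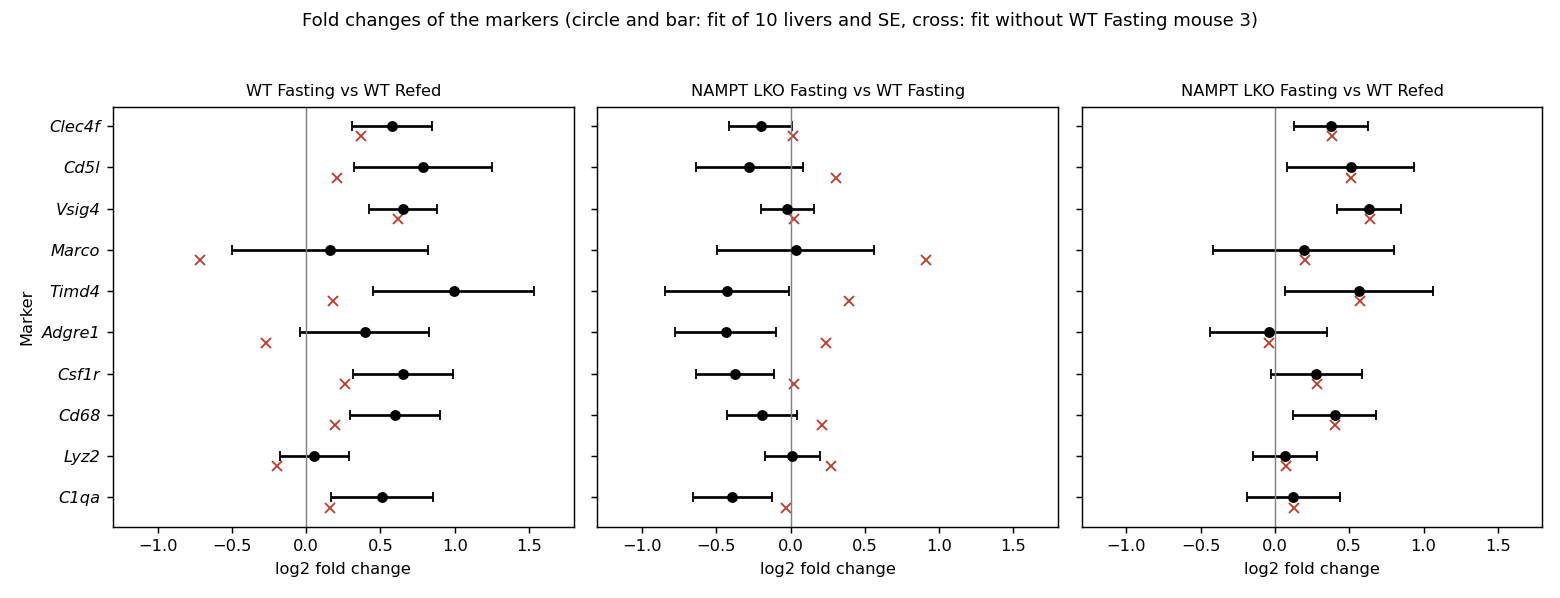
Log2 fold changes of the 10 markers in the 3 comparisons, as estimate and SE from the fit of all 10 livers (circles and bars) and as estimate without WT Fasting mouse 3 (crosses). Leaving out that liver moves the markers' median from 0.59 to 0.19 for fasting in WT livers and from -0.24 to 0.22 for NAMPT loss in fasted livers, and hardly moves Vsig4.

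WT Fasting mouse 3 was the highest of all 10 livers for 9 of 10 markers. Relative to the mean of WT Fasting mice 1 and 2 its markers stood at a median of 1.93 times, from 1.06 times for Vsig4 and 1.46 for Clec4f, through 2.47 for Cd5l and 2.74 for Adgre1, to 3.24 for Timd4 and 3.46 for Marco. At least 1.5 times was reached by 8 of 10 markers and by 11% of all genes tested. Those 8 were Cd5l, Marco and Timd4 of the resident Kupffer cell markers and all 5 shared markers.

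Other lists shared the difference unequally. Of the further Kupffer cell genes, 4 of 12 stood at 1.5 times or more in that liver (median 1.25), against 15 of 23 further macrophage genes (median 2.19) and 8 of 11 genes of monocytes and recruited macrophages (median 2.44). Of those 11 genes, 8 passed the filter without that liver. The rest entered only through their level in that liver, so their high ratio there follows from the filter. Mpeg1, a pore-forming protein of phagocytes, was at 192 TMM CPM against 24.7 to 44.5 in the other livers. Cd74, the invariant chain of class II antigen presentation, was at 331 against 24.0 to 91.7, and Irf8, a factor of macrophage and dendritic lineages, at 31.5 against 4.83 to 8.91. Among inflammatory products, Cxcl10, an interferon-induced chemokine, was at 28.5 against 0.52 to 2.57, and Nos2, inducible nitric oxide synthase, at 2.5 against 0.00 to 0.20. Of 6 inflammatory products tested, 3 passed the filter without that liver, and Nos2 was not among them. The listed markers of sinusoidal endothelium (median 1.09 times), stellate cells (0.87) and hepatocytes (1.10) did not share the difference, with 0 genes of each at 1.5 times or more. Neutrophil and T or NK cell markers were higher in the 2 genes of each that passed the filter, while their defining genes Ly6g, Cd3d and Cd8a were at 0 in some livers. Without WT Fasting mouse 3, only 1 gene of each of these lists passed the filter, so the count of 2 depends on that liver. What these other genes and cells add to the markers' levels was not tested.

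The NAMPT LKO Fasting livers varied among themselves. NAMPT LKO Fasting mouse 3 was the highest of its group for 9 of 10 markers and mouse 1 the lowest for 6 of 10. Mouse 1 stood at 0.29 times the mean of the rest of its group for Marco, 0.47 for Cd5l and 0.58 for Vsig4, but at 0.85 for Adgre1 and 0.84 for Lyz2. In the same liver Cx3cr1, a receptor of monocyte-derived macrophages, was at 3.39 TMM CPM and Gpnmb, a glycoprotein of lipid-laden macrophages, at 2.30. These levels recurred in mouse 3 (2.85 and 1.98), the highest of its group for all resident Kupffer cell markers but Timd4. In the other 8 livers Gpnmb was at 0.11 to 0.47. The list these 2 genes come from did not follow them evenly. Over its 11 tested genes, the median ratio to the rest of the group was 1.33 in mouse 1, with 9 above 1. In mouse 3 it was 1.03, with 6 above 1. Gpnmb had a log2 fold change of 1.89 against WT Fasting (SE 0.84, adjusted p = 0.827 with edgeR), which did not pass. Gpnmb passed the filter on low counts only through mice 1 and 3. Its high ratios there and its positive estimate therefore follow in part from the filter.

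NAMPT LKO Fasting mouse 5, the liver with the high mitochondrial share, was the lowest of its group for 4 markers and the highest for Timd4. Its ratio to the rest of its group ran from 0.55 for C1qa, with the most GC-rich exons (59.5%), to 1.72 for Timd4, with the least (44.4%). Over the 10 markers this ratio on the log2 scale had a Pearson r of -0.60 and a Spearman rho of -0.50 with GC content, given as a description of genes in 1 library. When each library's trend with GC content was removed, 0 of 10 markers passed in any comparison. WT Refed mouse 1 was above WT Refed mouse 2 for all 10 markers, from close values for Cd68 to 27.4 against 10.2 for Marco.

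The markers moved together among mice of 1 group. After removal of group means, the 45 pairs had a median Pearson r of 0.75 over the 10 livers, from 0.32 to 0.98, and the closest pair was Csf1r with C1qa. Without WT Fasting mouse 3 the median was 0.63, from -0.04 to 0.97. Over all 10 livers Vsig4 was the least like the others (median r 0.53) and Csf1r the most (0.87), whereas without that liver Timd4 was the least (0.32) and Cd5l the most (0.81), with Vsig4 at 0.63 and Csf1r at 0.75. These values share libraries and depth, and they are given without a test.

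Their spread within groups was wide for their level. The pooled SD of log2 CPM ran from 0.29 for Vsig4 and Lyz2 and 0.34 for Clec4f to 0.69 for Timd4 and 0.93 for Marco, whereas genes of like abundance had medians of 0.17 to 0.23. An SD of 0.93 on this scale, as for Marco, leaves a group mean of 2 or 3 mice poorly fixed.

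Outside all lists, the 5 genes most like the markers over the 10 livers were chosen by Pearson r with the mean of the markers' standardised log2 CPM. They were Cmklr1, the chemerin receptor (r 0.97, Spearman rho 0.92), Dse (r 0.97, rho 0.93), Ptprc, the leukocyte antigen CD45 (r 0.94, rho 0.94), Pirb (r 0.94, rho 0.90) and Ncf1, a subunit of the phagocyte oxidase (r 0.93, rho 0.83). With the 2 livers farthest from the median left out (WT Fasting mouse 3 and NAMPT LKO Fasting mouse 3), r was 0.88, 0.93, 0.77, 0.75 and 0.85 in that order. An r above 0.9 was reached by 31 of 13444 genes. As these genes were picked for the likeness, it has no test.

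Further genes of Kupffer cell identity did not move as 1 group. Of 12 tested, 0 passed in WT Fasting vs WT Refed or in NAMPT LKO Fasting vs WT Fasting. In NAMPT LKO Fasting vs WT Refed 1 rose and 2 fell, in a comparison in which 11.2% of all genes tested passed. So few genes do not set the list apart from that share. Clec1b, a lectin-like receptor, was at 7.09 and 7.55 TMM CPM in WT Refed, 12.8, 13.3 and 13.4 in WT Fasting and 9.37 to 18.8 in NAMPT LKO Fasting livers, with no overlap between fasted and refed livers. It rose by a log2 fold change of 0.87 in NAMPT LKO Fasting vs WT Refed (SE 0.22, adjusted p = 0.0315, edgeR's quasi-likelihood test) and had 0.85 in WT Fasting vs WT Refed (SE 0.24, adjusted p = 0.058). The rise did not pass in 5 of 22 alternatives, namely a fit of those 2 groups alone and without either WT Refed liver or NAMPT LKO Fasting mouse 2 or 3 (adjusted p up to 0.217).

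Nr1h3 (LXR alpha), a lineage-determining factor of Kupffer cells that hepatocytes also express, was at 147 and 140 TMM CPM in WT Refed, 98.2, 109 and 116 in WT Fasting and 86.6 to 102 in NAMPT LKO Fasting livers. It fell by 0.60 on the log2 scale in NAMPT LKO Fasting vs WT Refed (SE 0.10, adjusted p = 0.0046, edgeR's quasi-likelihood test) and had -0.41 in WT Fasting vs WT Refed (SE 0.11, adjusted p = 0.0545). The fall did not pass without WT Refed mouse 1 (adjusted p = 0.0754) or mouse 2 (0.0617). Id3, another such factor that is not restricted to macrophages, was at 53.3 and 64.4 in WT Refed and 3.96 to 30.3 in all 8 fasted livers. It fell by 1.89 on the log2 scale in NAMPT LKO Fasting vs WT Refed (SE 0.51, adjusted p = 0.0387), and had -1.95 in WT Fasting vs WT Refed (SE 0.59, adjusted p = 0.0743). Its fall did not pass in 7 of 22 alternatives, namely a fit of those 2 groups alone and without either WT Refed liver, WT Fasting mouse 1 or NAMPT LKO Fasting mouse 1, 2 or 3 (adjusted p up to 0.258). Il18bp, an interleukin-18 antagonist of the same list, was at 48.3 in WT Fasting mouse 3 and at 6.57 to 16.0 in the other livers.

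Of 23 further macrophage genes, 1 passed in any comparison, in NAMPT LKO Fasting vs WT Refed, where 11.2% of all genes passed. Mrc1, the mannose receptor, which sinusoidal endothelium also expresses, rose by a log2 fold change of 0.55 in NAMPT LKO Fasting vs WT Refed (SE 0.16, adjusted p = 0.0495, edgeR's quasi-likelihood test). The endothelial marker Kdr rose by 0.37 in the same comparison (SE 0.11, adjusted p = 0.0475). Each of these 2 calls was lost in 16 of 22 alternatives, among them library size alone, the RLE normalization, both other filters, a fit of those 2 groups alone, the GC trend removed, and each single liver left out except NAMPT LKO Fasting mice 1 and 5 (adjusted p up to 0.277 for Mrc1 and 0.297 for Kdr). The partner chains of C1qa followed it: C1qb had log2 fold changes of -0.46 (SE 0.26) and C1qc of -0.54 (SE 0.34) against WT Fasting livers, and 0.66 (SE 0.33) and 0.74 (SE 0.44) in WT Fasting vs WT Refed, and neither passed.

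Of 10 genes listed as the CSF1 receptor axis, 0 passed in any comparison. This list holds the marker Csf1r itself, and Spi1 and Tyrobp, which are also among the further macrophage genes. It also holds Csf2ra and Csf2rb, which encode the CSF2 receptor, so its medians are not those of CSF1 signalling alone. Of all genes, 7.04% passed in WT Fasting vs WT Refed and 11.2% in NAMPT LKO Fasting vs WT Refed. The axis genes' median log2 fold change was -0.39 for NAMPT loss in fasted livers and 0.60 in WT Fasting vs WT Refed. Without WT Fasting mouse 3 these medians were 0.11 and 0.17. The ligand Csf1 was at 8.04 and 11 TMM CPM in WT Refed, 8.10, 6.51 and 10.3 in WT Fasting and 4.92 to 8.69 in NAMPT LKO Fasting livers, groups that overlap. The second ligand, Il34, was at 0.51 to 1.91 in all livers.

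Among products of activated macrophages, Il1rn, the interleukin-1 receptor antagonist that hepatocytes also make, was at 0.97 and 0.95 TMM CPM in WT Refed, 3.61, 5.93 and 5.81 in WT Fasting and 3.67 to 11.6 in NAMPT LKO Fasting livers. It rose in WT Fasting (log2 fold change 2.40, SE 0.51, adjusted p = 0.0183, edgeR's quasi-likelihood test) and in NAMPT LKO Fasting livers (2.61, SE 0.49, adjusted p = 0.0077) against WT Refed. Neither rise passed without WT Refed mouse 1 (adjusted p = 0.145 and 0.091) or mouse 2 (0.181 and 0.11), nor the first without WT Fasting mouse 2 (0.0532). Il1rn was the 1 gene of 6 tested that passed, against 7.04% of all genes in WT Fasting and 11.2% in NAMPT LKO Fasting livers vs WT Refed. Tnf, Il6, Il10, Il12b, Ccl3, Ccl4, Nos2 and Ptgs2 were at 0 counts in some livers. Of 11 genes of monocytes and recruited macrophages, 0 passed, beside the same shares of all genes, and 8 of the 11 passed the filter on low values without WT Fasting mouse 3. Clec9a, a marker of dendritic cells, rose in WT Fasting vs WT Refed (1.38, SE 0.35, adjusted p = 0.0408 with edgeR), as 1 of 3 tested, against 7.04% of all genes. That call was lost in 9 of 22 alternatives, namely with no filter beyond 1 count and without any single WT liver or NAMPT LKO Fasting mouse 1, 2 or 3 (adjusted p up to 0.252).

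**Figure D4:**
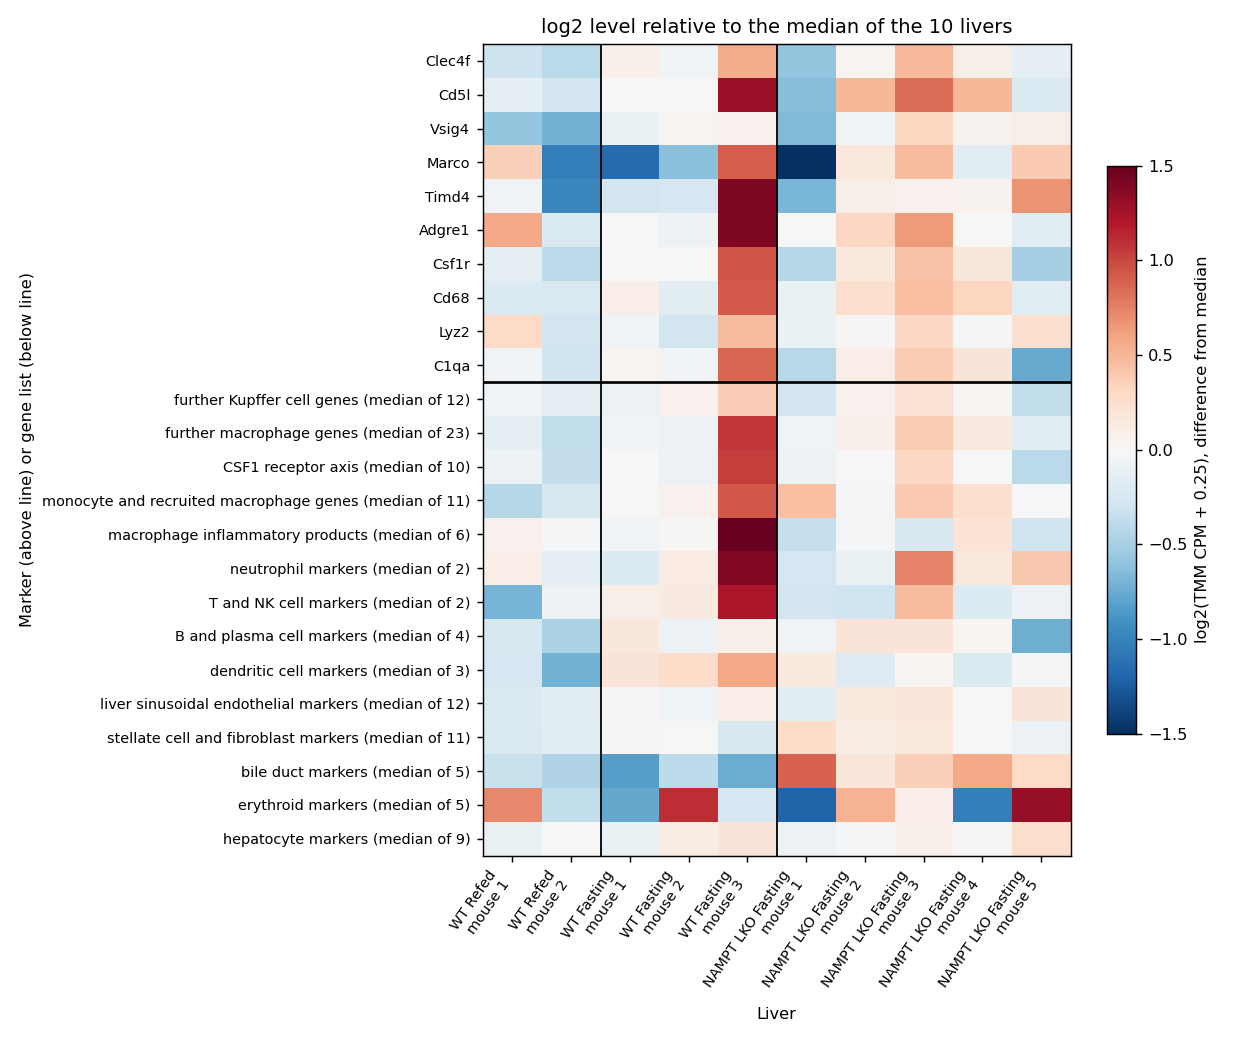
Log2 level of each marker (above the line) and of each gene list (below the line, median over its tested genes) in each liver, as the difference of log2(TMM CPM + 0.25) from the median of the 10 livers, red for higher and blue for lower. WT Fasting mouse 3 is red across most markers and macrophage lists and near 0 for endothelial, stellate and hepatocyte lists. It is also red for the neutrophil (1.38) and T and NK cell (1.21) lists, of 2 tested genes each. The dendritic list (3 tested genes) stands at 0.57 and the B and plasma cell list (4 tested genes) at 0.09.

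Summed levels place the markers beside the other cells of the liver. The 10 markers summed to 266 and 341 TMM CPM in WT Refed, 329 to 636 in WT Fasting and 252 to 496 in NAMPT LKO Fasting livers. The sinusoidal endothelial list (12 genes) summed to 448 and 449, 485 to 560 and 447 to 583, and the stellate list (11 genes) to 331 and 338, 327 to 416 and 356 to 409, in the same order. Neutrophil markers (10 genes) summed to at most 6.2, T and NK cell markers (12 genes) to at most 7.5 and B and plasma cell markers (8 genes) to at most 5.6 in any liver. Bile duct markers summed to 33.8 to 53.8 in NAMPT LKO Fasting livers and to 15.0 to 22.1 in the 5 WT livers. Spp1 is expressed by bile duct cells and some recruited macrophages. In NAMPT LKO Fasting livers it had a log2 fold change of 1.64 against WT Fasting (SE 0.22). It did not pass with edgeR's quasi-likelihood test (adjusted p = 0.0603) and did with DESeq2 (1.18e-09) and edgeR's exact test (5.92e-08). Under the quasi-likelihood test it passed with no filter beyond 1 count (0.000317), the GC trend removed (0.0323), library size alone (0.0462) and filterByExpr (0.0481). It also passed without NAMPT LKO Fasting mouse 3 (0.00881) and did not in the other fits. Against WT Refed it rose by 1.55 (adjusted p = 0.0043, quasi-likelihood test), and by 1.37 without WT Refed mouse 2, where it did not pass. Trem2, of the same recruited cells, was at 0.22 to 2.21 TMM CPM. What such cells add to Spp1 was not tested.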

How the data were processed

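Poly-A RNA was sequenced from the livers of 10 mice (2 WT Refed, 3 WT Fasting, 5 NAMPT LKO Fasting). Per the labels, the authors aligned reads to GRCm38 with STAR 2.5.1a and deposited the read count of each Ensembl gene made with featureCounts 1.4.6-p5. Whether counting used strand is not given in the sources used here. The authors also deposited CPM, in which the count is scaled by the library total. The authors' deposited RPKM further divides by exonic length. Neither adds an independent normalization. Groups and the replicate numbers of the fasted livers come from the labels. The labels of the 2 WT Refed livers hold no number, and these livers were numbered here in the order of the samples.

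Symbols were matched from GENCODE for 40340 of 41388 genes. A gene entered the test with more than 1 CPM in any library. After 355 rRNA genes were set aside, 13444 genes remained. TMM factors were computed from the counts, and edgeR 4.0.16 in R 4.3.3 fitted 1 mean per group to the 10 libraries (quasi-likelihood test, with Benjamini-Hochberg adjustment over all genes tested). A gene passed at an adjusted p of at most 0.05. Unless another tool is named, p-values and SEs are from this fit, and they measure the spread between single livers. The tests were tested on simulated data. Alternatives used DESeq2 1.42.0, limma 3.58.1 (voomWithQualityWeights), the exact test of edgeR, other scalings and filters, counts freed of a trend with GC content in each library (loess, span 0.5), replicate blocks, and fits that leave libraries out. Leaving out both libraries that stand apart, and freeing counts of the GC trend without WT Fasting mouse 3, were added after seeing the data.

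The 10 markers and all gene lists were chosen with earlier results of these data known. The genes named are the markers, Nampt, listed genes that passed in any comparison, the gene of each list with the lowest p for NAMPT loss in fasted livers, partner genes of C1qa, Lyz2 and Csf1r, defining markers of the lists, and the 5 genes most like the markers; not all of these are printed, and 1 is not reported here. Mpeg1, Cd74, Irf8, Nos2, Il18bp, Cx3cr1 and Trem2 were singled out after their values were seen. Same-numbered libraries are different animals. Of 162 listed symbols, 161 were matched. No pair of replicate libraries agreed within sampling noise.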

Additional observations from a re-analysis of the deposited data

Results flagged for a closer look

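Of 25 sets of values examined in the 5 NAMPT LKO Fasting livers (each marker and each list's sum), 1 held a liver set apart from the rest by Dixon's criterion, where chance gives about 1.25. The summed level of B and plasma cell markers was 2.42 TMM CPM in NAMPT LKO Fasting mouse 5, and its gap to the next liver was 0.711 of the group's range, just past the limit of 0.71. No marker of Kupffer cells or macrophages was set apart in this way. The criterion was applied to the group of 5 livers alone. Groups of 2 and 3 livers, among them the WT Fasting group, in which mouse 3 was high, were not examined with it.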

How the results depend on the processing

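For NAMPT loss in fasted livers 0 of 10 markers passed under every alternative run, and in the other comparisons at most 1 did (Vsig4, for WT Fasting vs WT Refed with voomWithQualityWeights, in a fit of only the 2 groups, at an unadjusted p under 0.05 and without NAMPT LKO Fasting mouse 1, and for NAMPT LKO Fasting vs WT Refed with voomWithQualityWeights, DESeq2, an adjusted p of at most 0.1, an unadjusted p under 0.05 and without NAMPT LKO Fasting mouse 1). Of 320 marker estimates under alternatives that keep all libraries or only the groups or numbers compared, 12 changed sign, and of 360 with libraries left out, 50 did. The cause was not tested.

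With voomWithQualityWeights the markers' median against WT Fasting was 0.0024, with Cd5l at 0.14, Adgre1 at 0.056, Cd68 at 0.13 and Il34 at 0.071. Marco had -0.23 and Lyz2 -0.090 in WT Fasting vs WT Refed, and Adgre1 0.080 in NAMPT LKO Fasting vs WT Refed. With library size alone Marco had -0.025 and Lyz2 -0.029 against WT Fasting, and Lyz2 -0.025 against WT Refed. With the GC trend removed Lyz2 had -0.0055 and Il34 0.015 against WT Fasting.

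With the GC trend removed and without WT Fasting mouse 3, the median against WT Fasting was 0.19, with Clec4f at 0.018, Cd5l 0.29, Timd4 0.28, Adgre1 0.18, Csf1r 0.036, Cd68 0.22, C1qa 0.030, C1qb 0.035, Il34 0.37 and Mpeg1 0.14. In WT Fasting vs WT Refed the median was then 0.20, with Marco at -0.73, Adgre1 at -0.25 and Lyz2 at -0.18.

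Leaving out each library, or both that stand apart, gave a markers' median of -0.45 to 0.22 against WT Fasting, 0.19 to 0.75 for WT Fasting vs WT Refed and 0.17 to 0.44 for NAMPT LKO Fasting vs WT Refed, and 0 to 1 markers passed in each of the last 2. Against WT Fasting, log2 fold changes ran from -0.35 to 0.043 for Clec4f, -0.50 to 0.40 for Cd5l, -0.12 to 0.10 for Vsig4, -0.31 to 0.91 for Marco, -0.71 to 0.39 for Timd4, -0.69 to 0.31 for Adgre1, -0.53 to 0.12 for Csf1r, -0.40 to 0.28 for Cd68, -0.14 to 0.27 for Lyz2, -0.55 to 0.095 for C1qa, -0.67 to 0.052 for C1qb, -0.75 to 0.12 for C1qc, -0.41 to 0.32 for Il34, -1.61 to 0.30 for Mpeg1 and -0.44 to 0.35 for Hba-a1. In WT Fasting vs WT Refed they ran from -0.71 to 1.04 for Marco, -0.27 to 0.85 for Adgre1 and -0.21 to 0.37 for Lyz2. In NAMPT LKO Fasting vs WT Refed they ran from -0.39 to 0.42 for Adgre1, -0.34 to 1.08 for Marco, -0.19 to 0.39 for Lyz2 and -0.015 to 0.26 for C1qa. Where 1 WT Refed library was left, the fit assumes that it varies like the other groups.

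Over all genes, 1 passed for NAMPT loss in fasted livers, and this became 24 (edgeR's exact test), 21 (DESeq2), 17 (no filter beyond 1 count), 3 with filterByExpr, the GC trend removed or an adjusted p of at most 0.1, 2 with library size alone and 2 with the GC trend removed without WT Fasting mouse 3. In WT Fasting vs WT Refed 946 became 3331 (voomWithQualityWeights), 1646 (DESeq2), 1627 in a fit of these 2 groups, 1467 with the GC trend removed and 1592 at an adjusted p of at most 0.1. In NAMPT LKO Fasting vs WT Refed 1510 became 4281 with voomWithQualityWeights, 2301 at an adjusted p of at most 0.1 and 2296 with the GC trend removed without WT Fasting mouse 3. At an unadjusted p under 0.05 these counts were 811, 3002 and 3508. With libraries left out they ran from 1 to 2, from 106 (without WT Refed mouse 2) to 2293 and from 207 (without WT Refed mouse 2) to 3329.

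With the replicate block on libraries numbered 1 to 3, the markers' median against WT Fasting was -0.17 with 0 markers and 0 genes passing, and Marco had -0.0064. Without the block the same 6 libraries gave -0.19, 0 and 0, with Marco at -0.058 and Il34 at 0.0057. Same-numbered libraries correlated by 0.104, 0.078 and 0.097 in their deviations from group means (mean 0.093), against a mean of -0.023 for other pairs. These values do not decide whether the numbers mark pairs, and the fit of all livers did not pair mice.

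The limits are 2 WT Refed livers, 1 WT Fasting liver that stands apart, 1 NAMPT LKO Fasting liver with a GC trend, and the use of bulk RNA. In bulk RNA, macrophage number, RNA per macrophage and changes in the RNA of other cells cannot be told apart. Depth was not limiting for the markers themselves, with at least 161 counts in each liver.

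The 11 calls of listed genes other than the markers and Nampt were all in comparisons with WT Refed. Over 22 alternatives none of them turned in direction, and each was lost in at least 1, from 1 for Spp1 to 16 for Kdr and Mrc1.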
